A study of Mus musculus with 6 samples.

Results

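Apoptosis after loss of contact with the matrix, called anoikis, is run by the BCL2 family, and transcripts of 10 of its regulators were compared between primary mammary epithelial cells (MEC) and tumor cell lines lacking the JNK kinases (MEKO). Members were the table entries whose gene column held one of 10 listed symbols. They comprised the 3 guardians *Bcl2*, *Bcl2l1* and *Mcl1*, the 2 effectors *Bax* and *Bak1*, and the 5 BH3-only genes *Bid*, *Bcl2l11*, *Bmf*, *Bbc3* and *Pmaip1*. The 10 members were 10 of 37753 entries with expression values, and all 10 were high enough to be tested. Entries were found by symbol and not by level.

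MEC (n = 3 preparations) came from C57/Bl6J females of genotype WAPCre+, were pooled from 3 to 5 virgin animals of 10 to 12 weeks, and grew on collagen I until near confluence. MEKO (n = 3 lines, numbered 199, 233 and 336) were breast tumor cell lines of the same strain with genotype Mapk8KO Mapk9KO Cre+, which had 2 passages on collagen I before transfer to ordinary dishes. The *Wap* promoter drives Cre in milk-producing cells and is most active in late pregnancy and lactation, and the control females were virgin. The paper describes the tumors of this genotype as coming from parous mice. Each line arose from 1 tumor, and no untransformed JNK-deficient cells were compared here. Genotype, transformation, parity and age of the donors, time in culture and growth surface therefore cannot be told apart. Both groups grew attached to a dish, so no library was of detached cells. No label gave a batch.

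Guardians bind and restrain the effectors, which otherwise open pores in the outer mitochondrial membrane and release cytochrome c. BH3-only proteins are the sensors that neutralize guardians or activate effectors, and in mammary epithelium BIM (from *Bcl2l11*) and BMF are known for clearing cells that lose matrix contact. JNK phosphorylates BIM and BMF at the motif through which they bind dynein light chain (LC8), which frees them from the cytoskeleton. That is a step on the protein, and transcript levels do not measure it.

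The coding sequences of the LC8 motif are shown because they are the site through which JNK acts on these proteins. They come from GENCODE M21 coding exons on mouse build GRCm38, and the capitals mark the 6 codons of the motif.
Bcl2l11, chr2:128128942-128128986, plus strand: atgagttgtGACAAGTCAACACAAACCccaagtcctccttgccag
Bmf, chr2:118546774-118546818, minus strand: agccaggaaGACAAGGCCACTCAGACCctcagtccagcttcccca
The motif was present in 3 of 5 coding transcripts of *Bcl2l11* and in 2 of 2 of *Bmf*. The deposited values sum all transcripts of a gene, so forms of BIM with and without this motif, and long and short forms of the *Bcl2l1* and *Mcl1* products, cannot be told apart.

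All members share the BH3 segment, the helix through which the proteins bind each other, and its coding sequence shows the kinship of the 3 classes. In the same annotation, the capitals mark the 6 codons of the core, which open with a leucine codon and close with an aspartate codon. *Pmaip1* is not shown.
Bid, chr6:120897286-120897327, minus strand: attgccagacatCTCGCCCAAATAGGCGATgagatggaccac
Bcl2l11, chr2:128147138-128147179, plus strand: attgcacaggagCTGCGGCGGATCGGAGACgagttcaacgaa
Bmf, chr2:118545097-118545138, minus strand: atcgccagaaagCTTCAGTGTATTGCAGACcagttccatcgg
Bbc3, chr7:16313761-16313802, plus strand: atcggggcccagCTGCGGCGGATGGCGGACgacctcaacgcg
Bax, chr7:45465994-45466035, minus strand: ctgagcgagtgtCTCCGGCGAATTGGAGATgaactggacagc
Bak1, chr17:27022528-27022569, minus strand: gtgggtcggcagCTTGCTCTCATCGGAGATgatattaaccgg
Bcl2, chr1:106712572-106712613, minus strand: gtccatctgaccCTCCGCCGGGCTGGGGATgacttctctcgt
Bcl2l1, chr2:152829694-152829735, minus strand: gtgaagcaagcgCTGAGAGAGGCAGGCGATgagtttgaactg
Mcl1, chr3:95659424-95659465, plus strand: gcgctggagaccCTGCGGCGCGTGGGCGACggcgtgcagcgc

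Expression was given as FPKM, fragments per length of transcript and per number of mapped fragments, which allows genes to be compared per length. Read numbers were not given, so the depth is unknown; summed FPKM ranged from 557991 to 638365 per library. *Mapk8* and *Mapk9*, the deleted genes, stood at 6.09% to 33.6% of the MEC mean in the lines and were highest in line 199. The summed 6 epithelial markers were 5441 to 8544 FPKM in MEC and 1304 to 1944 in the lines, with all 6 detected. Line 199 stood apart on the basal keratins *Krt5* and *Krt14*, at 608 and 521 FPKM, above every MEC value, against 1.33 to 24.0 FPKM in lines 233 and 336. Line 199 carried 1111 FPKM of 8 summed fibroblast markers, against 118 to 207 in MEC and 2.43 and 4.23 in lines 233 and 336. That sum was mostly the collagens *Col1a1* (599.7 FPKM) and *Col1a2* (408 FPKM), both above every MEC value. *Col3a1*, *Pdgfrb* and *Pdgfra* of the same list also lay above every MEC value in line 199, at 71.5, 19.0 and 1.31 FPKM. In that line *Dcn*, *Lum* and *Thy1* lay below every MEC value, at 0.311, 0.0264 and 11.1 FPKM. The myeloid marker *Lyz2* was at 16.5 to 32.9 FPKM in MEC and at most 0.0182 in the lines, with *Cd52* at 1.02 to 3.29 and 0, *Itgam* at 0.794 to 1.21 and at most 0.00773, and *Csf1r* at 1.46 to 1.95 and 0.152 to 1.41. The leukocyte genes *Ptprc*, *Cd3e* and *Cd79a* stayed below 1 in every library. Summed endothelial markers were 2.13 to 19.7 FPKM in MEC and 0.164 to 2.01 in the lines. The part of these cells in the results was not tested, and in bulk RNA fewer cells of a type and less RNA per cell cannot be told apart.

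*Bid* and *Pmaip1* were the 2 of 10 members called higher in MEKO, and 0 were called lower. They encode BH3-only proteins that pass on death receptor signals (BID) and counter MCL1 (NOXA). By sign alone, 6 members had a log2 difference above 0 and 4 below 0, against 6381 and 6080 of all tested genes. Genes were called in a limma fit on log2(FPKM + 1) over 12461 genes at a Benjamini-Hochberg adjusted p under 0.05 and a log2 change beyond 0.75. By that rule 9.9% of all genes were called, 2.64% higher and 7.26% lower. The median log2 difference of the members was 0.42, against 0.01 over all genes. All 3 lines lay above all 3 MEC preparations for 4 members and below them for 1, against 18.5% and 18.7% of all genes; in either direction the groups were apart for 37.2% of all genes. At an unadjusted p under 0.05 there were 5 members of 10, against 28.2% of all genes. With 3 libraries against 3, the two-sided exact permutation test on a single gene cannot give a p below 0.1, so it could not pass the threshold for any member.

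**Figure D1:**
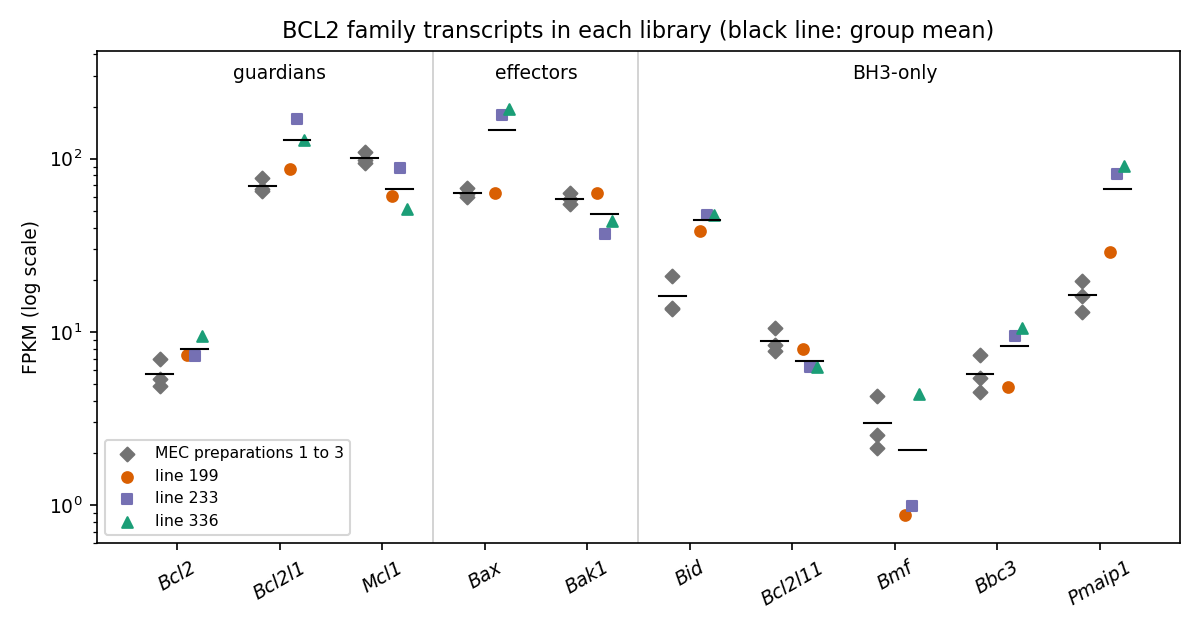
FPKM on a log axis of the 10 members in each library, grouped as guardians, effectors and BH3-only genes; grey diamonds are the 3 MEC preparations, the coloured symbols the 3 MEKO lines, and black lines the group means. The lines lie above MEC for *Bcl2*, *Bcl2l1*, *Bid* and *Pmaip1* and below MEC for *Mcl1*, and line 199 sits with MEC for *Bax*.

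Among the guardians, *Mcl1*, whose short-lived product restrains BAK, BIM and NOXA, was the most abundant in MEC. Its level was 94.1, 97.7 and 109 FPKM in MEC preparations 1 to 3 and 61.2, 88.5 and 51.2 FPKM in lines 199, 233 and 336. Every line lay below every MEC preparation. It differed by -0.61 on the log2 scale (95% interval -1.14 to -0.08; limma adjusted p = 0.136), which did not pass the test.

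*Bcl2l1* encodes BCL-XL, a stable guardian. Its level was 76.9, 65.4 and 67.0 FPKM in MEC and 87.3, 170.1 and 129 FPKM in the lines, in the order above. All lines lay above MEC, line 199 by the least. The groups differed by 0.83 on the log2 scale (95% interval 0.22 to 1.44), with a limma adjusted p of 0.0945.

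*Bcl2*, the founding member of the family, was far less abundant than the other guardians in both groups. It stood at 5.33, 4.89 and 6.99 FPKM in MEC and 7.31, 7.22 and 9.44 FPKM in the lines, again without overlap. The log2 difference of 0.42 (95% interval -0.06 to 0.90; limma adjusted p = 0.225) did not pass the test. An antisense gene, *D630008O14Rik*, covers 6.09% of the exon bases of *Bcl2* and was at 1.32 to 3.01 FPKM. Whether counting used strand is not given in the sources used here, so reads of the pair may not be separable.

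The shares of the guardians were also taken within each library. *Bcl2l1* made up 43.6%, 38.9% and 36.6% of the summed FPKM of the 3 listed guardians in MEC and 56.0%, 64.0% and 67.9% in the lines. *Mcl1* made up 53.4%, 58.2% and 59.5% in MEC and 39.3%, 33.3% and 27.1% in the lines. *Mcl1* was thus the leading guardian transcript in all 3 MEC preparations and *Bcl2l1* in all 3 lines. The ratio of *Bcl2l1* to *Mcl1* was 0.817, 0.669 and 0.616 in MEC and 1.43, 1.92 and 2.51 in the lines. This ratio was chosen after the values were seen and is a description without a test. Its lack of overlap between the groups followed from its genes, neither of which was called in the pooled fit. Every line lay above MEC for *Bcl2l1* and below MEC for *Mcl1*.

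The effectors divided the lines. *Bax*, which moves from the cytosol to mitochondria when activated, stood at 62.1, 60.3 and 67.9 FPKM in MEC and at 63.4, 179 and 195 FPKM in lines 199, 233 and 336. Line 199 lay inside the MEC range, at 99.9% of the MEC mean, while lines 233 and 336 were at 2.83 and 3.07 times that mean. The pooled log2 difference was 1.03 (95% interval 0.01 to 2.05; limma adjusted p = 0.176). Without line 199 *Bax* passed the test, at a log2 difference of 1.54 and an adjusted p of 0.00227, and 4.57% of all genes were then called higher. Without line 233 or 336 the difference was 0.80 and 0.74, with limma adjusted p of 0.330 and 0.323. Line 199 was also the library with high *Col1a1*, *Col1a2*, *Krt5* and *Krt14*, whose part in this was not tested. The predicted gene *Gm45808* shares 12.2% of the exon bases of *Bax* on the same strand, and its reads may not be separable.

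*Bak1*, the effector that resides on mitochondria, stood at 58.3, 62.9 and 54.9 FPKM in MEC and 63.2, 36.5 and 43.5 FPKM in the lines. Line 199 was the highest of all 6 libraries and the other two lines the lowest, so the groups overlapped. For *Bak1* the log2 difference was -0.33 (95% interval -0.86 to 0.20; limma adjusted p = 0.369). *Ggnbp1*, on the opposite strand, covers 18.2% of the exon bases of *Bak1* and was at 3.16 to 4.84 FPKM.

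*Bax* made up 51.6%, 48.9% and 55.3% of summed effector FPKM in MEC, 50.1% in line 199, and 83.1% and 81.7% in lines 233 and 336. The ratio of *Bax* to *Bak1*, also chosen after its values were seen, was 1.07, 0.958 and 1.24 in MEC, 1.00 in line 199, and 4.92 and 4.47 in the other lines. The share and the ratio restate each other, and in them line 199 lay within the MEC range and the other lines outside it.

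*Bid* encodes a BH3-only protein that caspase-8 cleaves into its active form. Its level was 13.5, 13.7 and 21.0 FPKM in MEC (16.1 ± 4.24, SD, n = 3) and 38.2, 47.6 and 47.5 FPKM in the lines (44.4 ± 5.41, SD, n = 3). All 3 lines lay above MEC and close to each other. The log2 difference was 1.43 (SE 0.21, 95% interval 0.92 to 1.95; limma adjusted p = 0.0132). The call was lost when MEC preparation 1 or 2 was left out, with adjusted p of 0.0728 and 0.0679. *Bcl2l13*, on the opposite strand, covers 17.7% of the exon bases of *Bid* and was at 8.52 to 9.08 FPKM in MEC and 8.99 to 14.6 FPKM in the lines.

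*Pmaip1* encodes NOXA, which binds MCL1 and marks it for degradation. Its level was 13.0, 19.7 and 16.1 FPKM in MEC and 28.9, 81.1 and 90.4 FPKM in the lines. All lines lay above MEC, but line 199 was at 1.78 times the MEC mean and lines 233 and 336 at 4.98 and 5.55 times. The log2 difference was 1.83 (SE 0.44, 95% interval 0.77 to 2.90) and its limma adjusted p of 0.0498 was just under the threshold. The call was lost in 11 of 13 alternatives, where the adjusted p reached 0.173. It was kept without line 199, at an adjusted p of 0.00236, and with library weights, whose estimation stopped before its convergence tolerance.

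*Bcl2l11*, the gene of BIM, was at 8.43, 7.70 and 10.5 FPKM in MEC and 7.93, 6.26 and 6.26 FPKM in the lines. Lines 233 and 336 lay below every MEC preparation and line 199 inside their range. The log2 difference was -0.33 (95% interval -0.78 to 0.11; limma adjusted p = 0.290), and 13 alternatives gave -0.43 to -0.22 without a call.

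*Bmf*, the other BH3-only target of JNK, was the least abundant member in both groups. It stood at 2.14, 2.55 and 4.26 FPKM in MEC and 0.875, 0.989 and 4.38 FPKM in the lines. Lines 199 and 233 lay below MEC, at 29.3% and 33.2% of its mean, while line 336 was the highest of the 6 libraries. Between the groups *Bmf* differed by -0.52 on the log2 scale (95% interval -1.64 to 0.60; limma adjusted p = 0.501), an interval wide enough to hold a change of either sign. The pseudocount of 1 compresses differences at these levels, and with 0.1 in its place the change was not called either.

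*Bbc3* encodes PUMA, a BH3-only protein that binds all guardians and is induced by p53. Its level was 5.39, 4.47 and 7.30 FPKM in MEC and 4.77, 9.45 and 10.6 FPKM in the lines. Line 199 again lay inside the MEC range and the other two lines above it. The log2 difference was 0.42 (95% interval -0.34 to 1.19; limma adjusted p = 0.425).

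**Figure D2:**
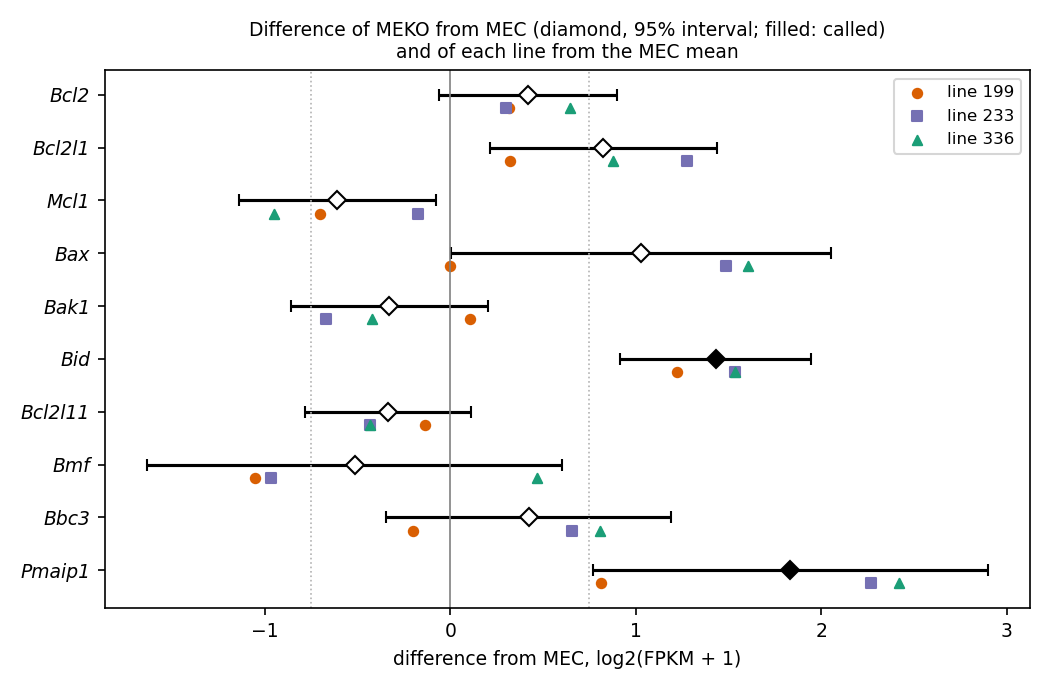
Difference from MEC on the log2(FPKM + 1) scale for each member; diamonds with bars are the MEKO mean with its 95% interval (filled where called), and coloured symbols are the single lines against the MEC mean. Dotted lines mark 0.75 in each direction. *Bid* and *Pmaip1* are filled, and the symbol of line 199 sits on the zero line for *Bax*.

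Ordered by level, *Mcl1* led in MEC and was followed by *Bcl2l1*, *Bax* and *Bak1*, whose neighbours overlapped in range. *Pmaip1* and *Bid* came next and overlapped, then *Bcl2l11*, then *Bcl2* and *Bbc3*, which overlapped, and *Bmf* last. In the lines *Bax* led by mean, and the ranges of neighbours overlapped from *Bax* through *Bcl2l1*, *Mcl1*, *Pmaip1* and *Bak1* to *Bid*. *Bbc3*, *Bcl2* and *Bcl2l11* followed with overlapping ranges, and *Bmf* was again last.

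Each line was also set against MEC alone, in a fit that assumes the single library to vary as the MEC preparations do. The 3 comparisons share the MEC libraries and are not independent. In line 336, 5 members were called by limma with Benjamini-Hochberg adjustment, where 16.9% of all genes were, 5.85% higher and 11.1% lower. *Bax* (log2 difference 1.60, adjusted p = 0.0103), *Pmaip1* (2.42, adjusted p = 0.0162), *Bcl2l1* (0.88, adjusted p = 0.0347) and *Bid* (1.53, adjusted p = 0.0492) were higher in that line. *Mcl1* was lower (-0.95, adjusted p = 0.0260), at 51.1% of the MEC mean.

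In line 233, 3 members were called, where 15.4% of all genes were, 5.06% higher and 10.3% lower. *Bax* (log2 difference 1.49, limma adjusted p = 0.0112), *Bcl2l1* (1.28, adjusted p = 0.0183) and *Pmaip1* (2.27, adjusted p = 0.0187) were higher. *Bid*, at 2.96 times the MEC mean, had an adjusted p of 0.0528, and *Bak1*, at 62.2%, one of 0.0505. In line 199 limma called 0 members, where 13.0% of all genes were called (5.04% higher, 7.94% lower). The members furthest from MEC there were *Bid* (log2 difference 1.22), *Bmf* (-1.05), *Pmaip1* (0.81) and *Mcl1* (-0.70). Without MEC preparation 1 no member was called in any of the 3 lines. Whether the lines differ from each other was not tested, each being 1 library.

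Class sums, shares and ratios hold the listed members alone and leave out other BCL2 family genes. Summed by class, the BH3-only genes were at 42.5, 48.1 and 59.1 FPKM in MEC and 80.7, 145 and 159 FPKM in the lines. Their sum lay above MEC in every line, with *Bid* and *Pmaip1* as its main parts. *Bcl2l11* and *Bmf* together made up 24.9%, 21.3% and 24.9% of it in MEC and 10.9%, 4.98% and 6.69% in the lines. Summed effectors were at 120.4, 123 and 123 FPKM in MEC, 127 in line 199, and 216 and 238 in lines 233 and 336. Summed guardians overlapped between the groups, at 168 to 183 FPKM in MEC and 156 to 266 FPKM in the lines.

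**Figure D3:**
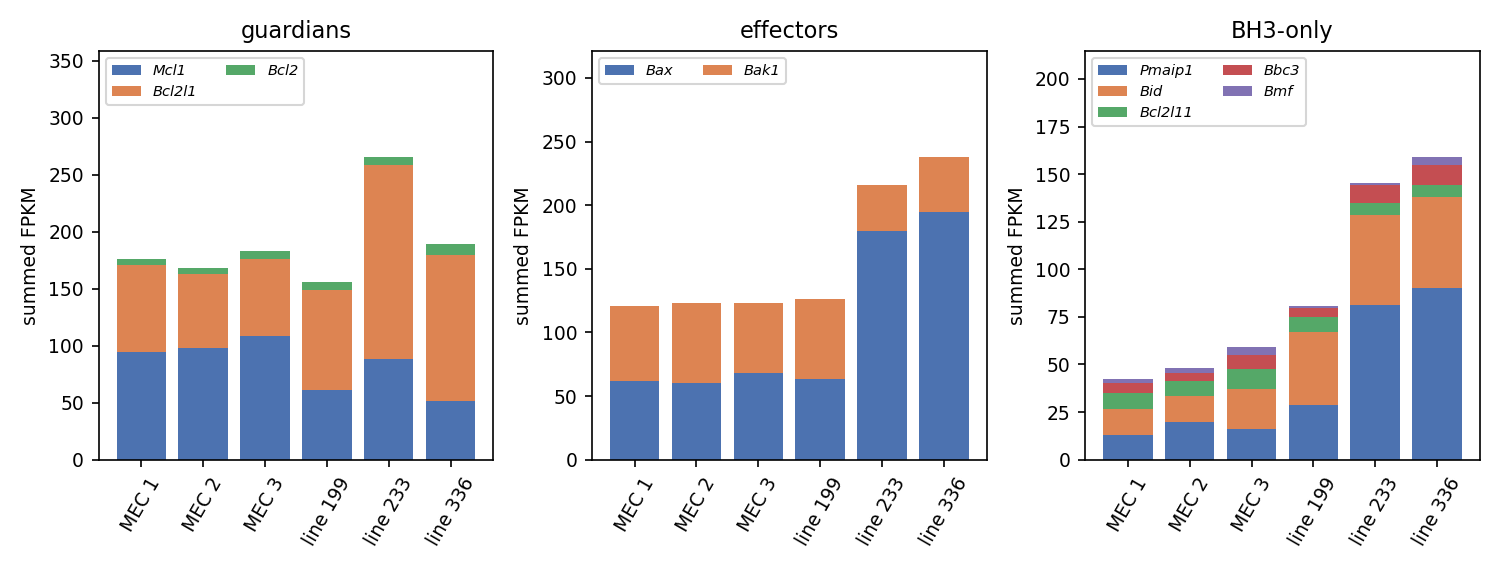
Stacked bars of summed FPKM per library for the listed guardians, effectors and BH3-only genes, each axis starting at 0 and with its own scale. Guardian sums overlap between groups, *Bax* widens the effector bar in lines 233 and 336, and *Pmaip1* and *Bid* make up most of the BH3-only bar in the lines.

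Ratios within a library do not depend on scaling between libraries. Effectors to guardians stood at 0.683, 0.734 and 0.672 in MEC and 0.812, 0.812 and 1.26 in the lines, all above MEC. BH3-only genes to guardians stood at 0.241, 0.286 and 0.324 in MEC and 0.518, 0.547 and 0.841 in the lines. *Pmaip1* to *Mcl1*, a binding pair, stood at 0.138, 0.201 and 0.148 in MEC and 0.473, 0.916 and 1.76 in the lines. These 3 ratios did not overlap between the groups. For *Pmaip1* to *Mcl1* that followed from its genes, as every line lay above MEC for *Pmaip1* and below MEC for *Mcl1*.

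Other ratios overlapped. *Bax* to *Bcl2* was 11.7, 12.3 and 9.72 in MEC, 8.67 in line 199, and 24.8 and 20.6 in lines 233 and 336. *Bcl2l11* to *Mcl1* was 0.0896, 0.0788 and 0.0962 in MEC and 0.130, 0.0706 and 0.122 in the lines. *Bid* to *Bcl2l1* was 0.176, 0.210 and 0.313 in MEC and 0.437, 0.280 and 0.370 in the lines. *Bax* to *Bcl2l1*, chosen after the values were seen, was 0.808, 0.922 and 1.01 in MEC and 0.726, 1.05 and 1.51 in the lines. The difference of its mean log2 values between the groups, 0.21, turned to -0.06 without line 336. No ratio was tested.

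Of 16 other BCL2 family genes, 10 were tested, 0 were called higher and 1 lower, with a median log2 difference of -0.24. The gene that fell was *Bik*, a BH3-only gene of epithelial cells, at 7.69, 9.95 and 7.95 FPKM in MEC and 0.101, 0.149 and 0.414 FPKM in the lines. Its log2 difference was -2.96 (SE 0.22; limma adjusted p = 0.00166). Its direction was opposite to that of *Bid* and *Pmaip1*, although all encode proteins of the BH3-only class.

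Among 16 genes of the mitochondrial death machinery, 1 was called higher and 1 lower, with a median of 0.14. *Apaf1*, the scaffold of the apoptosome, rose by 1.33 on the log2 scale (limma adjusted p = 0.0269), from 5.31, 4.72 and 5.25 FPKM to 10.3, 20.5 and 13.7 FPKM. *Casp9*, the caspase that this scaffold activates, fell by 1.17 on the log2 scale (limma adjusted p = 0.0371), from 7.73, 5.88 and 7.89 FPKM to 1.95, 2.25 and 3.88 FPKM. This list held 0 lower calls with no filter or with quantile normalization. It also held 0 at a mean FPKM of at least 5, a filter that left out *Casp9* itself (14 genes tested). Of 8 genes of the death receptor route to BID, limma called 0 and 0 had an unadjusted p under 0.05, with a median of -0.11.

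The list of dynein light chains and kinases upstream of BIM and BMF held 10 tested genes, of which only the deleted *Mapk8* and *Mapk9* were called, both lower. Of 11 tested transcription factors known to act on BH3-only genes, 1 was called higher and 3 lower, with a median of -0.25. *Myc* rose (log2 difference 1.03, limma adjusted p = 0.0486), a call kept only with library weights or without the fold threshold and lost in every other alternative. *Jun* (-2.53, limma adjusted p = 0.000927), *Fos* (-2.19, adjusted p = 0.00903) and *Foxo1* (-1.40, adjusted p = 0.0446) fell. The 3 lower calls became 2 with no filter, at a mean FPKM of at least 5, and without MEC preparation 2 or 3. They were also 2 without line 233 or 336, and 1 without MEC preparation 1. *Foxo1*, which encodes a forkhead factor known to induce *Bcl2l11*, was at 12.0, 11.4 and 21.3 FPKM in MEC and 7.17, 4.27 and 3.56 FPKM in the lines. Of 7 tested factors that set the stability of MCL1, BIM or NOXA, 1 was called higher and 0 were called lower. It was *Usp27x*, the gene of a deubiquitinase that stabilizes BIM, at 2.70, 2.92 and 1.97 FPKM in MEC and 7.98, 6.65 and 5.92 FPKM in the lines (log2 difference 1.15, SE 0.20; limma adjusted p = 0.0207). Leaving out any MEC preparation removed the calls of *Apaf1*, *Casp9*, *Usp27x*, *Mapk8* and *Mapk9*.

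**Figure D4:**
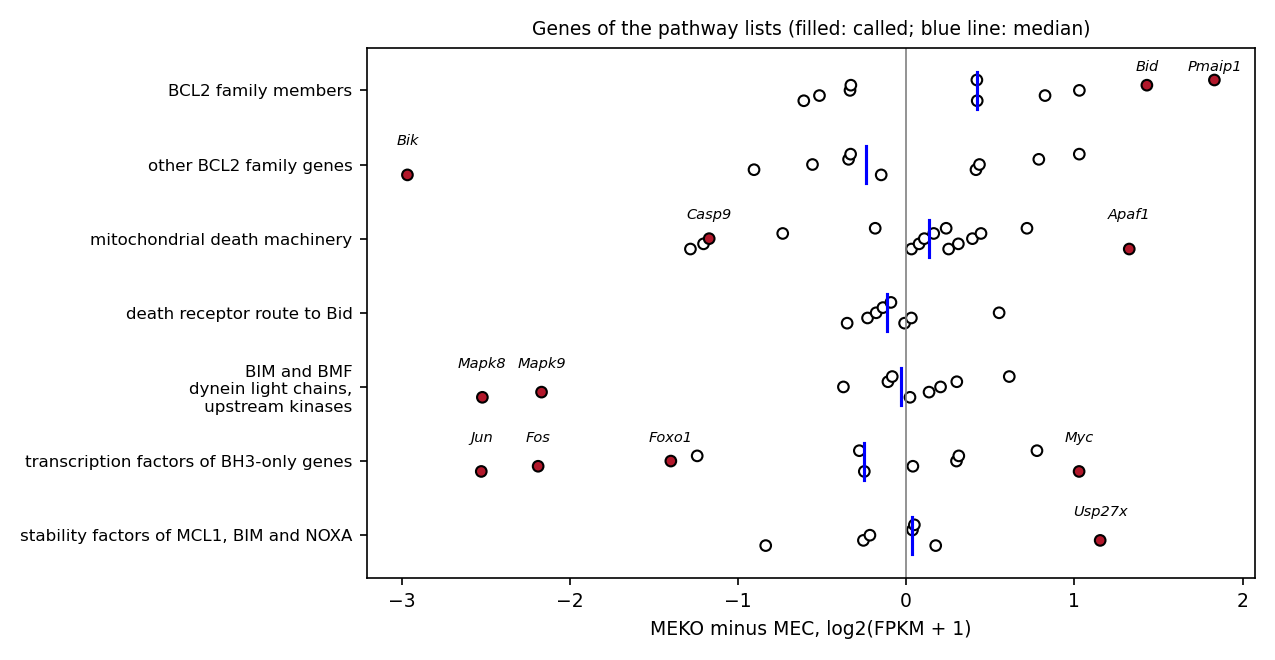
Difference of MEKO from MEC on the log2(FPKM + 1) scale for every tested gene of 7 lists; filled red points passed the test and are named, and blue lines are list medians. The medians lie between -0.25 and 0.42, with called genes on both sides of 0 in the lists of death machinery and of transcription factors.

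Promoters of the members were searched in RefSeq windows (GRCm38.p6) of 300 bases, from 250 before to 50 after a start. Windows were found for 9 members, 16 in all, some of them overlapping, and *Pmaip1* was left out. On both strands the AP-1 letters TGANTCA were in 0 of 16, against 7.81% of 32851 windows. The forkhead letters GTAAACA were in 2 of 16 (*Bcl2l11* and *Bbc3*), against 3.65%, and a p53 half-site in 2 of 16 (*Bax* and *Bmf*), against 8.36%. The GC box GGGCGG was in 10 of 16, against 35.7%. The windows of *Bid*, called in the pooled comparison, and of *Bax*, called in lines 233 and 336 alone, are shown on their gene's strand, with 3 GC boxes of *Bid* and the half-site of *Bax* in capitals.
Bid, chr6:120916775-120917074, minus strand: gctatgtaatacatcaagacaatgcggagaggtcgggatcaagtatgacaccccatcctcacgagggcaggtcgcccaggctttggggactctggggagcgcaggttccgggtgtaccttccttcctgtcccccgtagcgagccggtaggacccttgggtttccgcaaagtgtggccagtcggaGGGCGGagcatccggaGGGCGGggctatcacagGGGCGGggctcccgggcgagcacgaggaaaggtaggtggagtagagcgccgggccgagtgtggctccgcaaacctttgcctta
Bax, chr7:45466849-45467148, minus strand: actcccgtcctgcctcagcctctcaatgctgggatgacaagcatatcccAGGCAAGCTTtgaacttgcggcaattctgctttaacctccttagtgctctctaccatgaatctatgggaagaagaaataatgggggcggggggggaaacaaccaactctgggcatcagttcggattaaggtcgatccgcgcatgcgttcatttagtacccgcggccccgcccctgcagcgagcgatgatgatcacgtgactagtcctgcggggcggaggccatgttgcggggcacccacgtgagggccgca
The half-site of *Bax* began at position -201 from the start. A match is a match of letters, and binding was not measured.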

How the data were processed

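RNA was measured in 6 libraries, 3 of MEC and 3 of MEKO lines, grouped by the genotype label. The deposited table holds FPKM per gene, made by the authors from reads aligned to GRCm38 with TopHat2 2.0.14 and quantified with Cufflinks 2.2.1, per the submitters' processing notes; normalization to mapped fragments leaves no read counts, so count models were not used and depth and counting error are unknown. From the spacing of small values, relative depth was 0.920 to 1.30. Of 37755 entries 2 had no values and 466 joined several symbols.

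Values were tested as log2(FPKM + 1), a scale that understates changes of low genes, with limma 3.58.1 (R 4.3.3, mean-variance trend) over entries with a mean FPKM of at least 1, with Benjamini-Hochberg adjustment. Calls needed an adjusted p under 0.05 and a log2 difference beyond 0.75. The p-values of the pooled fit measure the spread between these preparations and lines. Those of the single-line fit rest on the spread between the MEC preparations and hold none between lines. The pooled and single-line fits were tested on simulated data. In the pooled simulation both groups had the same spread, so it did not test genes whose lines vary more than MEC. In the single-line simulation every library was given the spread of MEC, so it could not test whether a line varies as MEC preparations do. Every member is named, and of each wider list the called genes, up to 4 by size. The members and lists were chosen with earlier results of these data known. Alternatives changed the pseudocount (0.1), the filter (none, or 5), the scaling (quantile, upper quartile), the trend, the library weights (limma's estimate stopped before its convergence tolerance) or the fold threshold, or left out each library. Ratios of *Bcl2l1* to *Mcl1*, *Bax* to *Bak1* and *Bax* to *Bcl2l1* were added after the data were seen. Sequences are from GENCODE M21 and RefSeq. The summed leukocyte list is not reported here.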

Additional observations from a re-analysis of the deposited data

How the results depend on the processing

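No member changed direction in any alternative (13 for each, 12 for *Bmf*, which is below a mean FPKM of 5). Calls were less stable. Of the 10 members 2 were called, against 1 with a pseudocount of 0.1, no filter, a mean FPKM of at least 5, quantile normalization, upper-quartile scaling or no trend, and 4 with library weights; leaving out 1 library gave 0 to 4, with 0 without MEC preparation 1 or 2, 1 without preparation 3 or line 336, and 4 without line 199 (*Bax*, *Bcl2l1*, *Bid* and *Pmaip1*). *Bid* kept its call in 11 of 13 alternatives, *Pmaip1* in 2; *Mcl1* gained one without line 233 (adjusted p = 0.0430). Members called in line 199 were 0, against 1 with upper-quartile scaling and 0 to 2 without 1 MEC preparation (2 without preparation 3). In line 233 they were 3, against 0 to 5 (0, 1 and 5 without preparations 1, 2 and 3). In line 336 they were 5, against 3 with quantile normalization and 0 to 7 (0 and 1 without preparations 1 and 2). Over all genes 1234 were called, against 738 at a mean FPKM of at least 5 (fewer genes tested), 1978 with library weights, and 259 to 1966 without 1 library. Quantile normalization moved the median of all genes to 0.10 and the share of higher calls from 26.7% to 37.9%. Otherwise the cause was not tested. No paired analysis was possible because the groups share no replicate numbers. Depth is unknown, so counting error at the level of *Bmf* could not be given.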
